A study of Mus musculus with 8 samples.

Results

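The comparison described here is that of mouse blood eosinophils cultured for 18 h with IL-5 plus GM-CSF, IL-4 and IL-33 (group E2) with eosinophils cultured with IL-5 alone (group E0). It takes in 4 of the 8 libraries of the series, 2 in each group, all from the same experiment, and every gene row of the deposited count table. The row without a gene name, which equalled the column totals, was left out, so that 15917 genes remained, of which 15913 passed a filter on low counts and were tested. Both groups received 10 ng/mL of IL-5. E2, with the stated amounts read as those of each cytokine, also received 10 ng/mL of GM-CSF, 10 ng/mL of IL-4 and 30 ng/mL of IL-33, all 3 together, so that their single contributions cannot be told apart. The cells of both groups came from the blood of IL-5 transgenic mice of the NJ.1638 line, per the labels' protocol, on the C57BL/6 strain, while the genotype label reads WT. They were enriched by depleting CD90-bearing and B220-bearing cells with magnetic beads, to a stated purity above 97% by stain. Blood eosinophils of an IL-5 transgenic mouse have met IL-5 before the culture, which both groups share. The other 4 libraries, cells without cytokine (CN) and cells given IFN-γ and TNF-α at 15 ng/mL, read likewise as the amount of each (E1), belong to a separate experiment. They entered the same model fit for its estimate of spread and are used below only where a change is set against the change from CN to E1.

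Eosinophils are granulocytes of type 2 immunity that carry cationic proteins in their granules and respond to cytokines of helper T cells, innate lymphoid cells and epithelium. IL-5 and GM-CSF each bind a private alpha chain and share the common beta chain, which signals through JAK2 and STAT5 and prolongs the life of the cell. IL-4 signals through IL-4Rα and the common gamma chain to STAT6, and IL-33 binds ST2, which with IL-1RAcP recruits MyD88 and IRAK kinases and activates NF-κB and MAP kinases.

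Library totals were 60809057 and 78968527 counts in E0 and 82686185 and 75345693 in E2, for replicates 1 and 2 in this order, which is kept for all paired values below. Levels are library-size scaled counts (CPM) after TMM scaling, a correction for unequal library composition, and 3 counts in one library correspond to 0.0352 to 0.0483 CPM. Changes are log2 fold changes of E2 over E0 ± their standard error (SE), and a gene was called, that is, said to have risen or fallen, at a Benjamini-Hochberg adjusted p below 0.05 in edgeR's quasi-likelihood test over all genes. Whether replicates were separate animals or cultures is not stated in the labels. The p-values therefore measure only the spread between the libraries of a group, estimated over all 8 libraries of the fit. In both groups replicate 1 held Y-linked transcripts (Ddx3y, 82.5 and 0 CPM in E0 and 95.6 and 0 CPM in E2) and replicate 2 held Xist, so this spread includes a difference of sex. The replicates of a group were thus not cultures of the same cells, but whether each was 1 animal or a pool is not stated. The eosinophil markers Siglecf and Ccr3 were among the well-expressed genes in every library used, at no less than 757 and 1191 CPM. Positions are those of GENCODE M21 on mm10.

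Adding GM-CSF, IL-4 and IL-33 changed the transcriptome in both directions. Of the tested genes 35.5% were called, 17.0% higher and 18.5% lower in E2, and the median log2 fold change over all tested genes was -0.02. The counts of called list members given below are to be read against these shares. With the replicate number entered as a block, described further on, 8514 genes were called instead of 5655. Some genes given below as not called passed the threshold in that fit. Falls led among changes of 2-fold or more, with 828 rises and 943 falls, and rises led from 4-fold upward, with 312 against 243 genes at 4-fold or more, 139 against 80 at 8-fold or more and 36 against 17 at 32-fold or more. Most called genes, 3884 of 5655, changed by less than 2-fold. Among protein-coding genes, rises and falls of any size were nearly equal in number, at 2467 and 2465. The libraries of the groups did not overlap in 5654 of the 5655 called genes, but this also held for 73.1% of all tested genes. Because RNA was taken from whole cultures, fewer cells of a type and less RNA per cell cannot be told apart in any change below. Leaving out 1 of the 4 libraries lowered the number of called genes to between 3334 and 3984, and 1315 of the rises and 1442 of the falls were called whichever library was left out.

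**Figure D1:**
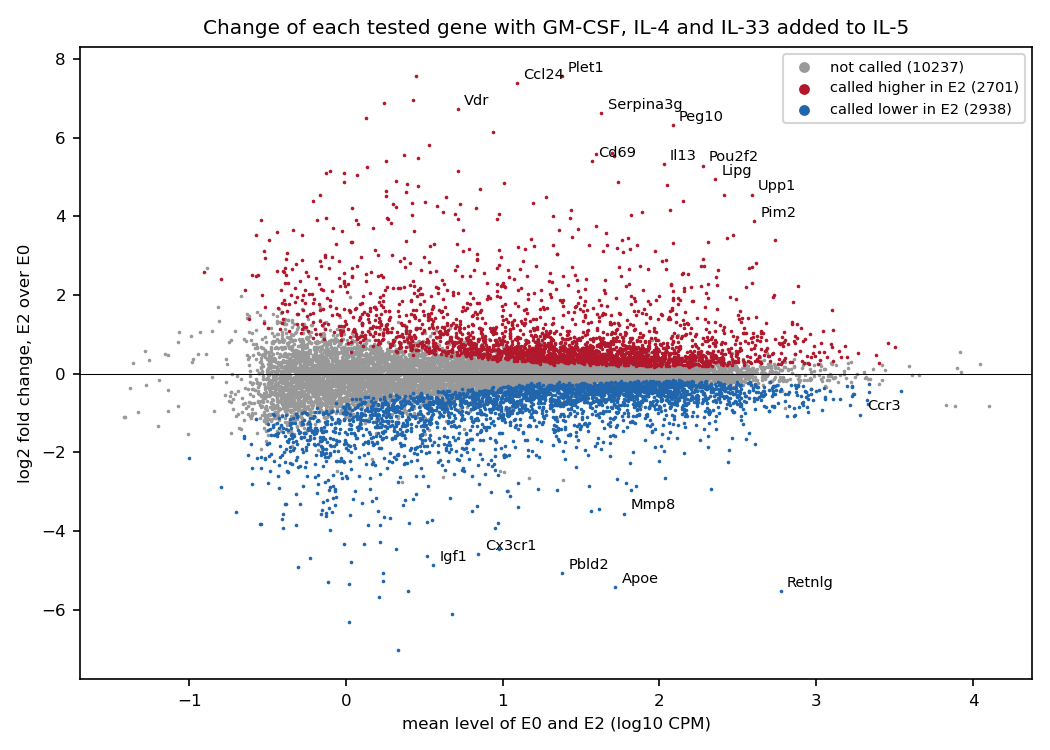
Each point is 1 of 15876 tested genes, with the mean level of E0 and E2 in log10 CPM on the horizontal axis and the log2 fold change of E2 over E0 on the vertical axis; red and blue mark called rises and falls, grey genes were not called, and the 37 genes with at most 3 counts over the libraries of a group are not drawn. Plet1, Ccl24 and Vdr lie near the top at low to middle levels, Pim2 and Upp1 combine high levels with large rises, and Retnlg is the highly expressed gene that fell most.

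Some transcripts went from near absence to clear expression. These were picked by level after the values were seen. A mean under 1 CPM in E0 and of at least 10 CPM in E2 was found for 11 genes: Aldh1a2, which makes retinoic acid, Ccl24, Flt1, Gzmb, Plet1 and its antisense partner Plet1os, Rmi2, Serpina3g, Vdr and 2 predicted genes, 6430571L13Rik and Gm28913. The strand setting of the counting is not given in the sources here, so that reads of Plet1 and Plet1os cannot be told apart. The reverse was found for 2 genes, the fractalkine receptor Cx3cr1 and the lysozyme Lyz1. Lyz1 differed between the replicates of E0, with 8.45 and 27.8 CPM in E0 and 0.669 and 1.0 CPM in E2, and its call (adjusted p = 0.0276) was lost without E0 replicate 2 (adjusted p = 0.102), without E2 replicate 1 (0.148) and without E2 replicate 2 (0.126).

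Secreted signals showed some of the largest rises. Of 33 listed type 2 and inflammatory cytokines 22 were tested, of which 14 rose, 7 fell and 1 was not called, with a median log2 fold change of 1.01 against -0.02 over all genes. Il13 (ENSMUSG00000020383, chromosome 11, 53631324 to 53634702), which encodes the type 2 effector cytokine IL-13, stood at 5.84 and 4.5 CPM in E0 and 218 and 197 CPM in E2. All E2 libraries lay far above all E0 libraries, a change of 5.33 ± 0.37 (adjusted p = 3.07e-05). Csf2, the gene of GM-CSF itself, had 0 counts in both E0 libraries and 413 over the E2 libraries, at 1.43 and 3.74 CPM. Against a floor of 3 counts over the group this is at least 123-fold higher (adjusted p = 0.00142).

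The pro-inflammatory cytokines rose together with Il13. Il1a, an IL-1 receptor agonist, was 3.57 and 3.64 CPM in E0 and 103 and 107 CPM in E2, a change of 4.86 ± 0.13 (adjusted p = 5.59e-07). Tnf went from 6.84 and 8.28 to 125 and 123 CPM (16.4-fold) and Il1b from 60.3 and 78 to 346 and 329 CPM (4.88-fold). Il1rn, which encodes the natural antagonist of the IL-1 receptor, rose 2.49-fold, to 958 and 1042 CPM. Within each of these genes the replicates lay close together and the groups did not overlap.

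The genes of the classical type 2 cytokines did not move alike. Il5 was 497 and 504 CPM in E0 and 966 and 966 CPM in E2, a 1.93-fold rise (adjusted p = 0.00277). The counts do not separate reads of the endogenous Il5 gene from reads of the IL-5 transgene that the protocol names. Il4, which lies on the same chromosome arm as Il13 and Il5, stood at 70.6 and 68.5 CPM in E0 and 73.9 and 79.4 CPM in E2 and was not called (log2 fold change 0.14 ± 0.08, adjusted p = 0.184). Among the 13 tested genes listed around the 3 cytokine genes on chromosome 11, 5 rose and 1 fell (3 rose without E0 replicate 1 or without E2 replicate 2, and none fell without any one of the other 3 libraries), and Il13 was the only one to rise by at least 2-fold. Rad50, which lies between Il13 and Il5, was 39.5 and 34.6 CPM in E0 and 39.3 and 37.5 CPM in E2 and was not called (adjusted p = 0.678).

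Cytokines that fell included growth and T cell factors. Csf1, the macrophage growth factor gene, fell from 461 and 413 to 137 and 145 CPM (log2 fold change -1.63 ± 0.09, adjusted p = 9.03e-06). Il15, which sustains NK and memory T cells, fell from 3.59 and 5.85 to 0.317 and 0.36 CPM (13.9-fold lower). Tnfsf13, which encodes APRIL, a survival factor of plasma cells, fell from 2.85 and 3.74 to 0.903 and 0.617 CPM (-2.11 ± 0.29).

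Of 31 listed chemokines 17 were tested, of which 10 rose, 0 fell and 7 were not called (median 1.69), and 8 of the 10 were called whichever library was left out. Ccl24 (ENSMUSG00000004814, chromosome 5, 135569937 to 135573049), which encodes the CCR3 ligand eotaxin-2, stood at 0.177 and 0.119 CPM in E0 and 24.7 and 24.5 CPM in E2. Both E0 libraries were close to the level of a few counts and both E2 libraries far above it, a change of 7.39 ± 0.30 (adjusted p = 2.45e-06). The CCR4 ligands Ccl17 and Ccl22, which attract type 2 helper and regulatory T cells, rose from 1.53 and 1.65 to 76.3 and 77.4 CPM (5.59 ± 0.10) and from 1.4 and 2.88 to 80.7 and 119 CPM (5.53 ± 0.47). Ccl17 was even across replicates, whereas Ccl22 was higher in replicate 2 of both groups.

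Because Ccl17 (ENSMUSG00000031780, chromosome 8, 94810453 to 94812036), Il13 and the signalling inhibitor gene Cish were taken as the gene examples for the added signals, the 250 bases before their start sites are shown, from RefSeq on GRCm38.p6. Lower case is plain sequence and capitals mark matches to 3 motifs on either strand. These are the STAT6-type letters TTC and GAA with 4 bases of any kind between them, the STAT-type letters TTCNNNGAA, and the NF-κB-type letters GGG and TTTCC with 2 bases of any kind between them. The STAT motifs read the same on both strands.
Ccl17, chr8:94810203-94810452, plus strand: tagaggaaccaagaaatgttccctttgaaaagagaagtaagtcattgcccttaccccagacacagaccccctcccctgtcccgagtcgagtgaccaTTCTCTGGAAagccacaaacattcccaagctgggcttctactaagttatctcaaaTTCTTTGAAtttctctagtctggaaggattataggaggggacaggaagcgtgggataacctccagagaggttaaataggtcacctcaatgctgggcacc
Il13, chr11:53634703-53634952, minus strand: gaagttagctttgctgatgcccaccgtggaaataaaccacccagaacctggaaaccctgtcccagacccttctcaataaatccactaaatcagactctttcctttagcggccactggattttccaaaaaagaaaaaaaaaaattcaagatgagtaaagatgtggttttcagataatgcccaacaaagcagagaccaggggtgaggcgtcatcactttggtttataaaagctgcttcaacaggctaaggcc
Cish, chr9:107296409-107296658, plus strand: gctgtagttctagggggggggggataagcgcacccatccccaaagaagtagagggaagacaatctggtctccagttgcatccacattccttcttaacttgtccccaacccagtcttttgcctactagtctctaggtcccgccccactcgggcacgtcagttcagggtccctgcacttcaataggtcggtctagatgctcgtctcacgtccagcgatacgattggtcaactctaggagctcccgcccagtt
The Ccl17 window held TTCTCTGGAA, with a spacer of 4 bases between the half-sites, 154 to 145 bases before the start, and TTCTTTGAA, with a spacer of 3 bases, 99 to 91 bases before it, and these matches do not overlap. The RefSeq start of Cish lies inside the interval that GENCODE gives for the gene. No match to the 3 searched motifs lies in the Il13 and Cish windows, which says only that these letters are not in these 250 bases. Over 27025 promoters in the table, the STAT6-type motif was present in 5.865%, TTCNNNGAA in 7.179% and the NF-κB-type motif in 1.399%. Over the 10333 tested genes with a promoter in the table, these shares were 4.723%, 6.107% and 1.394%. Among genes that rose by at least 4-fold and had a promoter in the table, the STAT6-type motif was in 19 of 221 (8.597%) and the NF-κB-type motif in 6 of 221 (2.715%), against 9 and 3 of 158 genes that fell by at least 4-fold (5.696% and 1.899%). TTCNNNGAA was in 13 of the 221 (5.882%) and in 9 of the 158 (5.696%). These shares are a description, and a match is not a bound site.

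The inflammatory CC chemokines rose as well. Ccl3, a ligand of CCR1, went from 12 and 12.7 to 218 and 225 CPM (4.17 ± 0.13, adjusted p = 7.95e-07), Ccl5 from 4.43 and 5.16 to 44.8 and 34.5 CPM and Ccl4 from 3.04 and 3.46 to 11 and 14.6 CPM. Cxcl10, a CXCR3 ligand best known as an interferon target, rose from 0.0322 and 0.0716 to 1.13 and 1.5 CPM (4.55 ± 0.28). Ccl6 was 7559 and 7511 CPM in E0 and 8036 and 8688 CPM in E2 and was not called (adjusted p = 0.283). In the chromosome 8 cluster around Ccl22 and Ccl17, 5 of 12 tested genes rose, 1 fell and 6 were not called (3 rises and 0 falls without any 1 library). Ciapin1 (chromosome 8, 94819804 to 94838358) rose 1.66-fold, and Polr2c (chromosome 8, 94857450 to 94873535) was 21.2 and 22.2 CPM in E0 and 25.9 and 24.7 CPM in E2 and was not called (adjusted p = 0.087).

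**Figure D2:**
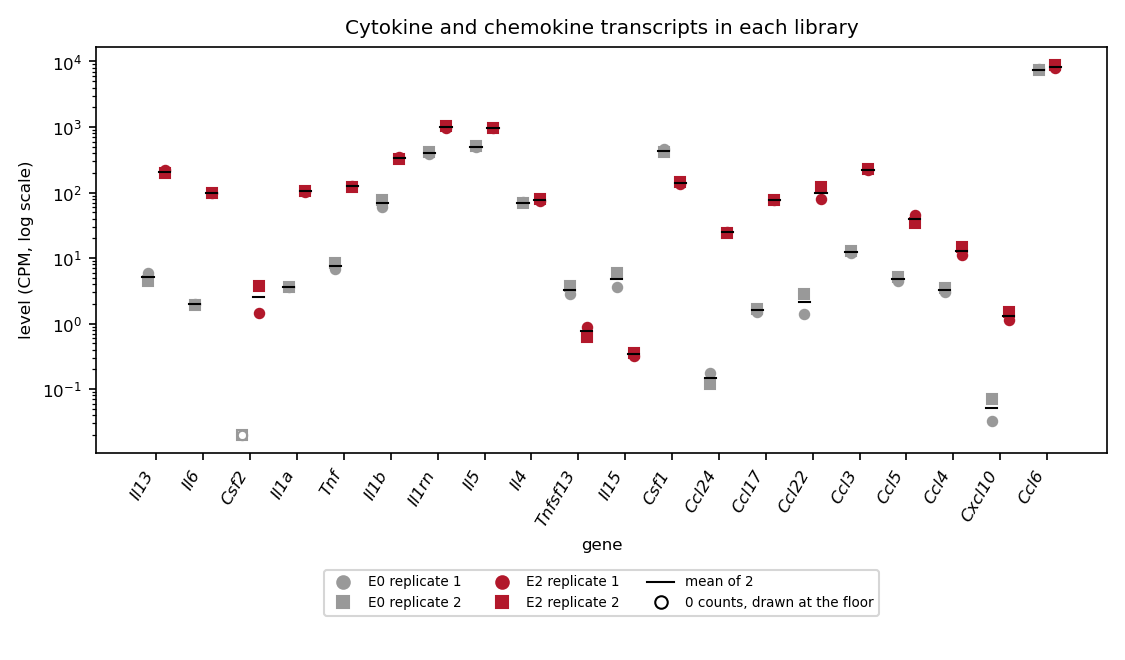
Levels in CPM on a log axis of 20 cytokine and chemokine genes in each E0 library (grey) and E2 library (red), with circles for replicate 1, squares for replicate 2 and a black line at the mean of the 2; open marks at the bottom stand for 0 counts. Il13, Il6, Il1a, Ccl24 and Ccl17 lie more than a decade higher in E2, Il4 and Ccl6 nearly coincide, and Csf1, Il15 and Tnfsf13 lie lower.

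The receptors for the added cytokines split by chain. Of 11 listed genes 10 were tested, 4 rose, 5 fell and 1 was not called (falls: 2 without E0 replicate 1 and 3 without any one of the other libraries). Il4ra, the IL-4 receptor alpha chain, rose from 84.3 and 99.7 to 303 and 292 CPM (1.69 ± 0.09, adjusted p = 1.12e-05). Il2rg, the common gamma chain that pairs with it, rose from 28.9 and 30.6 to 192 and 186 CPM (2.66 ± 0.10, adjusted p = 1.65e-06). Both ST2 receptor chains rose too: Il1rl1, which encodes ST2, was 603 and 609 CPM in E0 and 855 and 871 CPM in E2 (1.42-fold), and Il1rap, its partner chain, rose 1.58-fold.

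The chains of the IL-5 and GM-CSF receptors went down or were not called. Csf2rb, the common beta chain, fell from 4157 and 3888 to 2931 and 2991 CPM (-0.44, adjusted p = 0.00564, and 0.0531 without E0 replicate 1). Its near-identical neighbour Csf2rb2, between which and Csf2rb reads may be split, fell 1.42-fold. Il5ra was 73.5 and 66.6 CPM in E0 and 58.1 and 51.8 CPM in E2, a small fall (-0.35 ± 0.08, adjusted p = 0.0131) that was not called without E0 replicate 1 (0.0894) or E2 replicate 2 (0.106). Csf2ra, the GM-CSF receptor alpha chain, was 477 and 504 CPM in E0 and 476 and 475 CPM in E2 and was not called (adjusted p = 0.847). Il13ra1 fell 1.99-fold, from 13.2 and 19.7 CPM, and lost its call without E0 replicate 2 (0.101) or E2 replicate 1 (0.11).

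Among 28 tested receptors of other cytokines 10 rose and 8 fell (6 rises without E0 replicate 1 or without E2 replicate 2). Il10ra, the receptor chain of the inhibitory cytokine IL-10, rose from 75.4 and 94.4 to 318 and 324 CPM (1.92 ± 0.12). Il27ra rose 6.65-fold to 9.63 and 8.26 CPM. Il17ra fell from 305 and 325 to 132 and 140.02 CPM (-1.21 ± 0.08). Csf3r, the G-CSF receptor gene and a neutrophil marker, fell from 201 and 355 to 92.5 and 118 CPM, and was lower in replicate 1 than in replicate 2 of each group.

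Downstream of the receptors, the kinase and STAT genes changed by less than 2-fold and some feedback inhibitors by more. Of the 11 JAK and STAT genes 4 rose, 3 fell and 4 were not called, none by 2-fold (2 rises without E0 replicate 2 or without E2 replicate 1). Stat6 fell from 418 and 431 to 258 and 272 CPM (-0.68 ± 0.10), Stat5b from 216 and 201 to 140.4 and 134 CPM (-0.60 ± 0.07), and Stat5a, at 61.5 and 57.1 CPM in E0 and 57.4 and 61.3 CPM in E2, was not called (adjusted p = 0.993). Of the 15 inhibitors 8 rose and 3 fell. Socs1, which blocks JAK kinases, rose from 39.6 and 49.5 to 234 and 283 CPM (2.54 ± 0.16, adjusted p = 2.09e-05). Cish (chromosome 9, 107296026 to 107302784), a classical STAT5 target that binds cytokine receptors, was 216 and 216 CPM in E0 and 842 and 837 CPM in E2, nearly identical within each group and far apart between groups (1.96 ± 0.07, adjusted p = 1.51e-06). Socs3 rose 2.82-fold and the phosphatase genes Ptpn1 and Ptpn6 2.04-fold and 1.86-fold. Bcl6, a transcriptional repressor that opposes STAT-driven genes, fell from 23 and 32.2 to 6.22 and 6.47 CPM (-2.12 ± 0.15).

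Genes listed as STAT5 targets rose, while both groups had received IL-5. Of 22 tested, 18 rose, 0 fell and 4 were not called (median 1.55), and 14 were called whichever library was left out. Pim2, a serine/threonine kinase that supports survival and growth, was 49.5 and 52.6 CPM in E0 and 732 and 773 CPM in E2. The E2 libraries lay 14.7-fold above those of E0 with little spread (3.88 ± 0.11, adjusted p = 5.91e-07). Its relative Pim1 rose 2.42-fold. Ccnd2, which encodes cyclin D2, rose from 2.32 and 3.26 to 23.3 and 26.9 CPM, and Id1, an inhibitor of helix-loop-helix factors, 3.04-fold. Mcl1, an anti-apoptotic BCL-2 family gene, was 1243 and 1421 CPM in E0 and 1141 and 1331 CPM in E2 and was not called (adjusted p = 0.477). Myc, at 0.837 and 1.13 CPM in E0 and 3.78 and 3.36 CPM in E2, rose 3.6-fold, with the call lost without E0 replicate 1 (0.0585) or E2 replicate 1 (0.0518).

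Genes of the BCL-2 family rose more often than they fell. Of 17 tested members 10 rose and 2 fell. Bcl2l1, which encodes BCL-XL, rose from 40.7 and 41 to 242 and 241 CPM (2.56 ± 0.09, adjusted p = 1.01e-06), and Bcl2 from 16.3 and 14.2 to 52.3 and 49.5 CPM (1.74 ± 0.18). The A1 genes Bcl2a1a, Bcl2a1b and Bcl2a1d rose 3.14-fold, 5.78-fold and 6.65-fold, but are near-identical copies between which reads may be split. The 2 that fell are death promoters, Bbc3 (PUMA), at 22.1 and 20.2 CPM in E0 and 9.57 and 10 CPM in E2, and Bad, 1.44-fold. Bcl2l11, which encodes BIM, was 41.7 and 40.9 CPM in E0 and 27.3 and 29.8 CPM in E2. It was not called (adjusted p = 0.114), although the groups did not overlap, and passed the threshold in a fit to the 4 libraries of E0 and E2 alone (0.00334) and by DESeq2 (0.0381). The rises also included the pore-forming death genes Bax and Bak1, named here after their values were seen, which rose 1.33-fold and 1.44-fold, Bax losing its call without E0 replicate 1 (0.136) or E2 replicate 2 (0.143).

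In the other cell death genes 8 of 28 rose and 2 fell, close to the share called over all tested genes (35.5%). Trp53inp1, a stress-induced partner of p53, fell from 117 and 124 to 52.6 and 54.1 CPM (-1.18 ± 0.13, adjusted p = 0.000355). The death receptor Fas rose from 45.3 and 50.1 to 117 and 137 CPM, and Ripk3, the necroptosis kinase, from 3.09 and 3.77 to 16.5 and 16.4 CPM. Casp4, the mouse caspase-11 of the non-canonical inflammasome, rose 3.85-fold.

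Genes listed as STAT6 targets or under alternative activation, the programme that IL-4 induces in macrophages, rose more often than they fell. The list includes the chemokine genes Ccl17, Ccl22 and Ccl24, which were also counted above. Of 42 listed genes 37 were tested, of which 25 rose, 6 fell and 6 were not called (median 1.73), the falls numbering 3 without E0 replicate 2 or without E2 replicate 2. Chil3, a chitinase-like protein also called Ym1, was 5.92 and 9.63 CPM in E0 and 164 and 269.9 CPM in E2, with replicate 2 higher in both groups and no overlap (4.80 ± 0.32, adjusted p = 2.7e-05). Its close paralog Chil4, to which reads of Chil3 could be assigned and the reverse, rose from 0.0966 and 0.131 to 3.6 and 9.68 CPM. Slc7a2, an arginine transporter, rose from 0.0644 and 0.0597 to 2.04 and 1.7 CPM (4.89 ± 0.44) and Irf4, a transcription factor of alternative activation, from 2.0 and 2.89 to 15.2 and 18 CPM (2.76 ± 0.30). Tgm2, transglutaminase 2, rose 3.93-fold and Il4i1, an amino acid oxidase, 3.31-fold.

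Further members of this programme rose, fell or were not called. Retnla, which encodes RELMα (FIZZ1), was 70.4 and 106 CPM in E0 and 163 and 186 CPM in E2 and was not called (log2 fold change 0.98 ± 0.38, adjusted p = 0.0777), though it passed with the 4 libraries alone (0.00671). Arg1 reached 2.76 and 1.93 CPM from 0.676 and 0.776 (3.22-fold, adjusted p = 0.00664, and 0.0606 without E2 replicate 1). Alox15, an eosinophil lipoxygenase and a textbook IL-4 target of human monocytes, fell from 2454 and 2748 to 1584 and 1663 CPM (-0.68 ± 0.12). The mannose receptor Mrc1 fell from 4.41 and 7.4 to 1.07 and 0.553 CPM and Igf1 from 5.76 and 8.16 to 0.223 and 0.257 CPM (-4.85 ± 0.32). Mrc1 also stands among the markers of monocytes, macrophages and dendritic cells, of which 14 fell and 5 rose. The sum of these markers was 1114.7 and 1547.0 CPM in E0 and 1126.0 and 1111.4 CPM in E2. Igf1 thus fell beside some of these markers but not in step with their sum. Whether other cells had a part in the falls of Alox15, Mrc1 and Igf1 was not tested.

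The NF-κB genes, listed as subunits, regulators and targets together, gave the highest share of rises of the 51 lists. The lists were chosen with earlier results of these data known and share some genes, so that this rank is a description only. Of 35 tested, 31 rose, 1 fell and 3 were not called (median 1.40), and 28 rises were called whichever library was left out. Ikbke, a kinase of the IκB kinase family, was 7.56 and 9.31 CPM in E0 and 152 and 142 CPM in E2 (4.12 ± 0.18, adjusted p = 3.43e-06). Traf1 rose from 4.92 and 5.96 to 76.1 and 71 CPM (13.5-fold). The feedback inhibitors rose with the targets: Nfkbia, which encodes IκBα, from 32.6 and 40.7 to 372 and 371 CPM (3.34 ± 0.10), and Tnfaip3, which encodes A20, from 178 and 187 to 474 and 499 CPM (1.42 ± 0.09). The atypical IκB gene Nfkbiz, a co-factor for Il6 and other secondary targets, rose 9.74-fold. Among the subunits, Nfkb2 of the non-canonical pathway rose 4.7-fold. Rela was 97.1 and 104 CPM in E0 and 84.5 and 87.8 CPM in E2, the only fall, and was not called without E0 replicate 2 (0.146), E2 replicate 1 (0.114) or E2 replicate 2 (0.0705).

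Upstream of NF-κB, the rises of at least 2-fold were those of Irak3, Map3k8 and Zc3h12a. Of 23 tested genes of IL-1 family signalling 10 rose and 2 fell (7 rises without E0 replicate 1, and 1 fall without E0 replicate 2, E2 replicate 1 or E2 replicate 2). Irak3, also called IRAK-M, which inhibits IRAK signalling, rose from 45.2 and 45 to 481 and 502 CPM (3.45 ± 0.09, adjusted p = 5.1e-07). Map3k8, which links NF-κB signalling to ERK, rose from 3.25 and 4.48 to 36.5 and 38.9 CPM, and Zc3h12a, an RNase that degrades cytokine mRNAs, from 20.1 and 18.4 to 164 and 171 CPM (3.12 ± 0.08). Traf3, a ubiquitin ligase of these pathways, rose 1.82-fold. Il1r2, a decoy receptor for IL-1, rose from 8.85 and 14.8 to 18.1 and 23.8 CPM (adjusted p = 0.025, 0.094 without E0 replicate 1 and 0.164 without E2 replicate 2). Sigirr, an inhibitory member of the receptor family, fell 1.85-fold (adjusted p = 0.00673, and 0.0511 without E2 replicate 2), and Ikbkb, an IκB kinase subunit, was 258 and 246 CPM in E0 and 295 and 280.4 CPM in E2 and was not called (adjusted p = 0.0852).

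**Figure D3:**
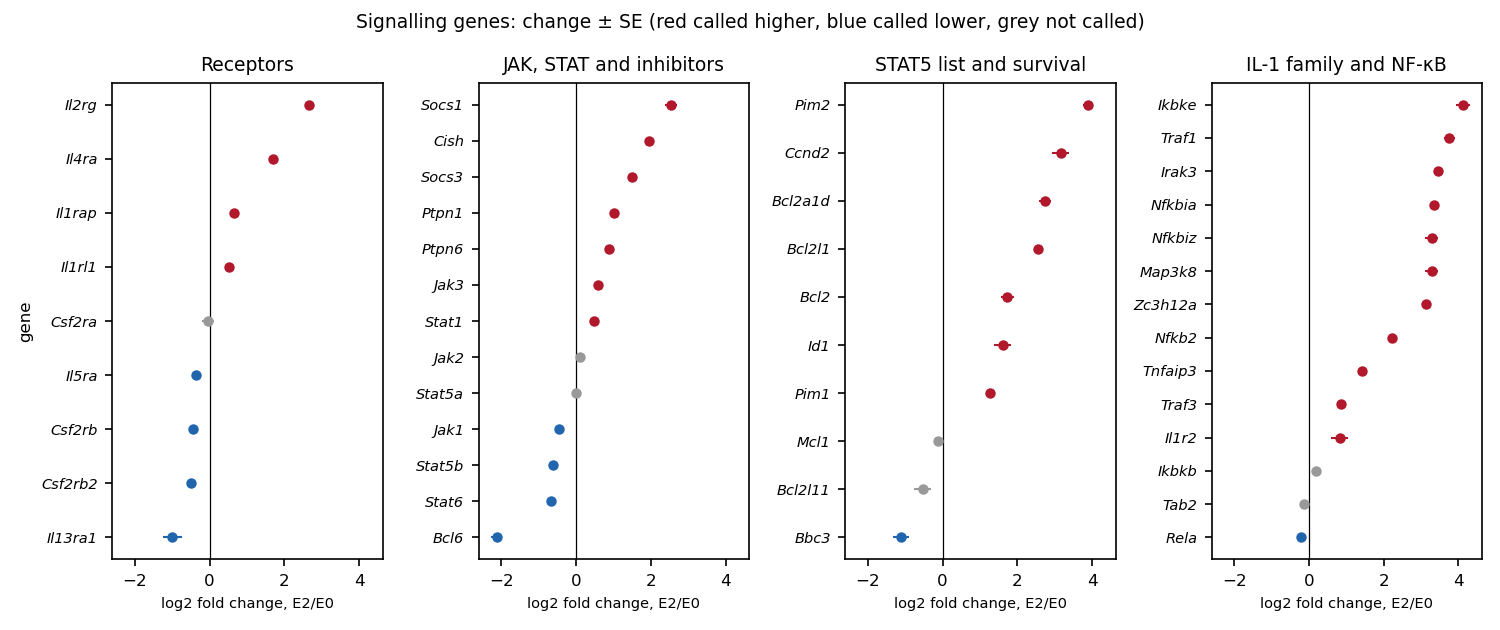
Log2 fold changes of E2 over E0 (points) with their standard errors (bars) for receptor chains, JAK, STAT and inhibitor genes, STAT5 list and survival genes, and IL-1 family and NF-κB genes; red and blue points were called higher and lower, grey points were not called. Inhibitors such as Socs1, Cish, Irak3 and Nfkbia lie far to the right, while Stat5a, Jak2, Csf2ra and Tab2 lie near 0.

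Of 30 tested immediate early and MAP kinase feedback genes 17 rose and 3 fell. Egr2 and Nr4a1, both early response factors, rose 6.36-fold and 4.39-fold, and Spred1, a feedback inhibitor of the ERK pathway, rose 4.77-fold. Fos went the other way, from 15.7 and 25.5 to 6.67 and 9.73 CPM (-1.33 ± 0.26), and its relative Fosl2 fell 1.51-fold. Zfp36, which encodes the mRNA-destabilising protein tristetraprolin, was 213 and 249 CPM in E0 and 209 and 240.3 CPM in E2 and was not called (adjusted p = 0.779).

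The granule protein genes were mostly lower. Of 13 listed 10 were tested, of which 6 fell, 1 rose and 3 were not called (median -1.32), but only 2 fell without E0 replicate 1 or without E2 replicate 2. Epx, which encodes eosinophil peroxidase, was 53.1 and 23.5 CPM in E0 and 15.2 and 7.87 CPM in E2, and Prg2, which encodes major basic protein, 336 and 185 CPM in E0 and 148 and 94.5 CPM in E2. In both genes replicate 1 stood above replicate 2 within each group, and the groups did not overlap. With the replicate number as a block, 6 members of the list were called lower and 1 higher. A fit without 1 library compares groups unmatched in sex, so that a call lost there does not show that a fall was absent. The calls (adjusted p = 0.0115 for Epx and 0.0194 for Prg2) were lost without E0 replicate 1 (0.0611 and 0.121) and without E2 replicate 2 (0.0767 and 0.127). Prg3 (18.2 and 11 CPM in E0 and 3.95 and 1.99 CPM in E2, adjusted p = 0.00213) and the ribonuclease gene Ear1 (125 and 59.7 CPM in E0 and 21.7 and 6.96 CPM in E2, adjusted p = 0.00455) were called whichever library was left out, with the same order of replicates. Ear2 fell 3.22-fold, a call lost without E0 replicate 1 (0.058) or E2 replicate 2 (0.0605). Ear6, a near relative, was 177 and 102 CPM in E0 and 155 and 122 CPM in E2, with overlapping groups (adjusted p = 0.972), and Rnase2a went up, from 4 counts over both E0 libraries to 3.3 and 2.04 CPM. The Ear genes are close paralogs, so reads may be split between them.

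Surface and identity genes of eosinophils shifted singly. Of 38 tested 17 rose and 7 fell (11 rises without E0 replicate 1 or without E2 replicate 2, and 4 falls without E0 replicate 1). Ccr3, the eotaxin receptor, fell from 2590.2 and 2561 to 1191 and 1318 CPM (-1.04 ± 0.09, adjusted p = 9.72e-05). Siglecf, the lectin used to sort mouse eosinophils, was 757 and 760.2 CPM in E0 and 938 and 901 CPM in E2. Its rise was 1.21-fold (adjusted p = 0.0379) and was lost on removal of any 1 library (adjusted p between 0.0971 and 0.168). Siglece, an inhibitory relative, rose from 59.7 and 71.1 to 395 and 422 CPM (2.64 ± 0.27). Adgre1, which encodes F4/80, rose 1.4-fold and the tetraspanin gene Cd53 2.41-fold.

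Among 33 tested transcription factors of granulocyte lineages 13 rose and 9 fell (8 rises without E2 replicate 1, 6 falls without E0 replicate 2). Gata1, essential for eosinophil development, rose from 159 and 162 to 208 and 222 CPM (0.42 ± 0.08). Xbp1, needed for eosinophil maturation and secretory capacity, rose 2.73-fold and Runx1 2.45-fold. Cebpa and Cebpd, factors of myeloid maturation, fell 2.74-fold and 2.78-fold, and Ikzf2, which encodes Helios, fell from 175 and 146 to 47.2 and 42.5 CPM (-1.84 ± 0.10). Cebpe was 271 and 273 CPM in E0 and 223 and 226 CPM in E2. It was not called (adjusted p = 0.219), though the groups did not overlap and the 4 libraries alone gave an adjusted p of 0.00865. Spi1, which encodes PU.1, was 388 and 397 CPM in E0 and 405 and 425 CPM in E2 (adjusted p = 0.45).

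**Figure D4:**
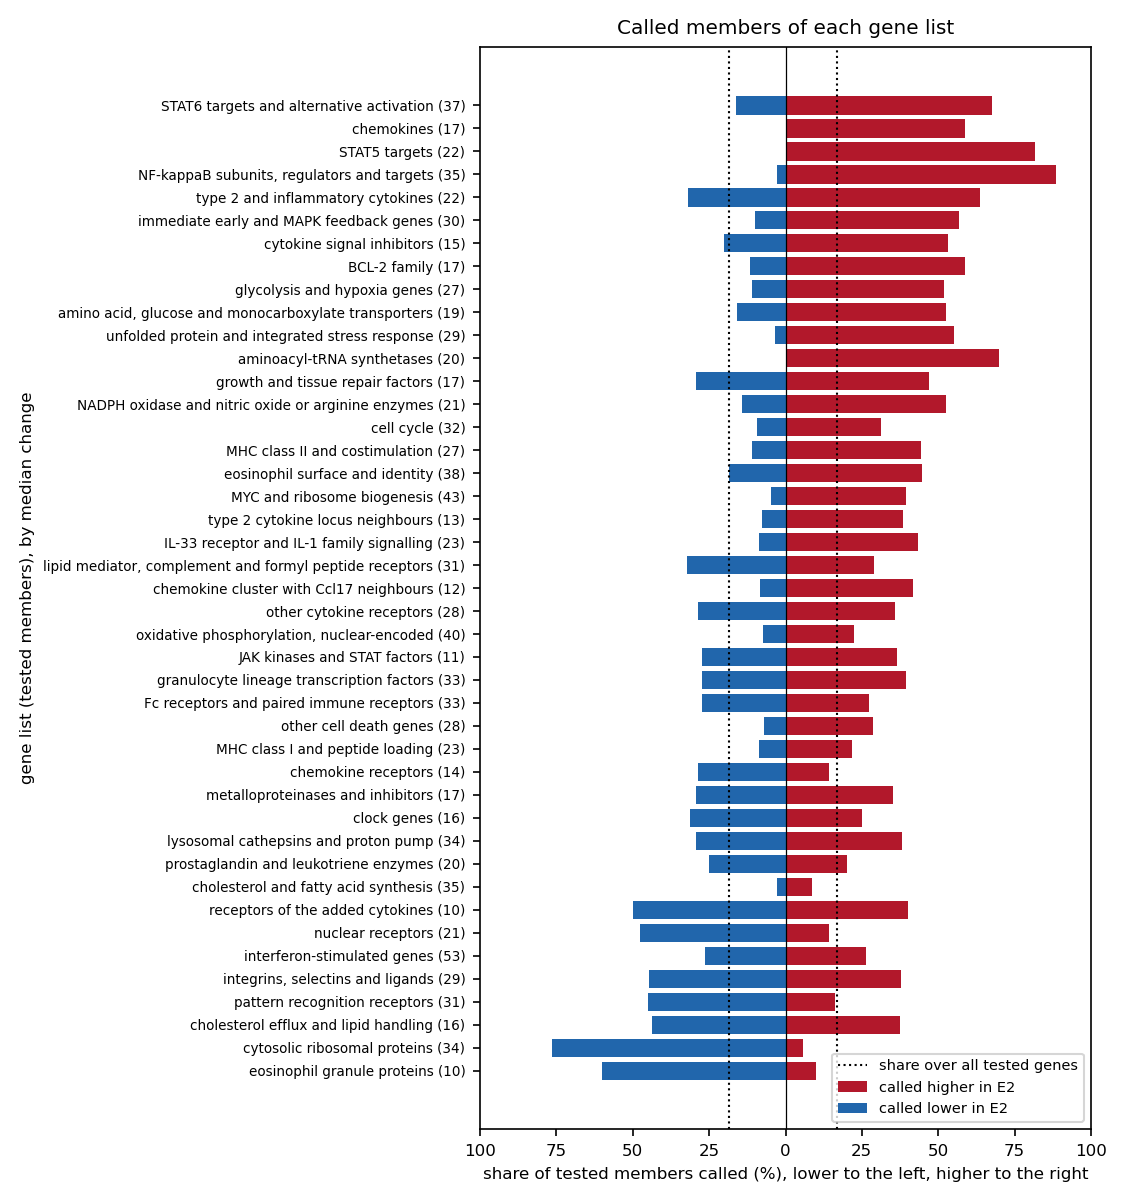
Share of tested members called lower (blue, to the left) and higher (red, to the right) in E2 for each gene list except the cell type marker lists. Lists are ordered by median log2 fold change, with the number of tested members in parentheses. Dotted lines mark the shares over all tested genes, 18.5% lower and 17.0% higher. NF-κB genes, STAT5 targets and aminoacyl-tRNA synthetases reach far right with few or no falls, and cytosolic ribosomal proteins and granule proteins reach far left.

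Adhesion genes changed in both directions. Of 29 tested integrins, selectins and ligands 11 rose and 13 fell (7 rises without E2 replicate 1). Cd69, a lectin that retains leukocytes in tissue by opposing the receptor S1PR1, rose 42.6-fold, and Itga5, the fibronectin receptor chain, from 7.85 and 9.45 to 51.4 and 47.2 CPM (2.51 ± 0.12, adjusted p = 5.43e-06). Itgae, the chain that binds E-cadherin, rose 3.19-fold. Integrin genes of homing from blood fell: Itga4 from 521 and 444 to 216 and 184 CPM (-1.27 ± 0.12) and Itgal, the alpha chain of LFA-1, from 556 and 538 to 184 and 204 CPM (-1.50 ± 0.10). Each of these falls had all E2 libraries below all E0 libraries.

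Chemokine receptors and receptors for lipid mediators changed gene by gene. Of 14 tested chemokine receptors 4 fell, 2 rose and 8 were not called (1 rise without E0 replicate 1, E2 replicate 1 or E2 replicate 2). Cxcr4, the receptor that holds leukocytes in marrow, fell from 128 and 136 to 44.1 and 51.8 CPM (-1.46 ± 0.18) and Cx3cr1 from 10.8 and 16.1 to 0.352 and 0.772 CPM. Ccr1 was 484 and 509.8 CPM in E0 and 498 and 535 CPM in E2 and was not called (adjusted p = 0.66). Of 31 tested receptors for lipid mediators, complement and formyl peptides 9 rose and 10 fell (5 falls without E2 replicate 1). Adora2a, the cAMP-raising adenosine receptor, rose from 21.1 and 24.5 to 145 and 146 CPM (2.67 ± 0.09), and Ptgir, the prostacyclin receptor, 3.39-fold. S1pr3 had 2 counts over the E0 libraries against 359 over those of E2, a ratio of 161 (exact 95% interval 44.2 to 1332). Lpar6, a lysophosphatidic acid receptor, fell from 60.3 and 65.4 to 7.99 and 9.28 CPM (-2.86 ± 0.11), and the decoy receptor C5ar2 fell 2.68-fold.

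Of 20 tested enzymes of prostaglandin and leukotriene metabolism 4 rose and 5 fell, and all 9 were called whichever library was left out. Ptges, a prostaglandin E synthase, rose from 0.483 and 0.489 to 3.05 and 2.39 CPM, and the cyclooxygenase genes Ptgs1 and Ptgs2 rose 2.24-fold and 3.47-fold. Hpgd, which inactivates prostaglandins, had 193 counts over the E0 libraries and 0 in E2, at least 71.9-fold lower (adjusted p = 0.000677). Hpgds, the haematopoietic prostaglandin D synthase, fell 4.78-fold. Alox5ap, needed for leukotriene synthesis, fell from 1072 and 1101 to 727 and 782 CPM, while Alox5 itself was 773 and 781 CPM in E0 and 865 and 849 CPM in E2 and was not called (adjusted p = 0.367).

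Pattern recognition receptors fell more often than they rose, with 14 falls and 5 rises among 31 (8 falls without E0 replicate 2 or without E2 replicate 1). Tlr9, the endosomal DNA sensor, rose from 2.74 and 3.23 to 31.6 and 25.5 CPM (3.25 ± 0.17), and Nlrc4 6.18-fold. Tlr7, the endosomal RNA sensor, fell from 3.33 and 5.98 to 0.903 and 1.16 CPM, the flagellin receptor Tlr5 12.7-fold and Nlrp12, an attenuator of NF-κB signalling, from 152 and 140.4 to 39.1 and 41.7 CPM (-1.86 ± 0.13). Cd14, the lipopolysaccharide co-receptor, rose 2.0-fold. Among 33 tested Fc and paired receptors 9 rose and 9 fell (4 rises without E0 replicate 1, E2 replicate 1 or E2 replicate 2, and 6 falls without E0 replicate 2 or E2 replicate 1). The 2 IgG receptors Fcgr1 and Fcgr4 went opposite ways, Fcgr1 from 3.73 and 6.8 to 13.8 and 15.2 CPM and Fcgr4 from 5.97 and 8.46 to 1.27 and 1.38 CPM.

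Several genes of costimulatory or inhibitory ligands for T cells rose. Cd86 was 12.1 and 14.3 CPM in E0 and 14 and 18.8 CPM in E2 and was not called (adjusted p = 0.182). These genes were listed together with those of MHC class II. Of 27 tested genes of this list 12 rose, 3 fell and 12 were not called (8 rises without E2 replicate 2). Cd274, which encodes PD-L1, rose from 25.6 and 33 to 121 and 137 CPM (2.14 ± 0.14, adjusted p = 2.79e-05), Pdcd1lg2, which encodes PD-L2, from 1.43 and 2.29 to 9.37 and 11.8 CPM (2.50 ± 0.24) and Cd80 from 20.5 and 24.4 to 58.5 and 72.2 CPM (1.54 ± 0.13). Cd276 fell 5.28-fold. H2-Aa was 66.5 and 101 CPM in E0 and 67.8 and 70.6 CPM in E2 and Cd74 139 and 237 CPM in E0 and 217 and 223 CPM in E2, with overlapping groups, and neither was called (adjusted p = 0.556 and 0.606).

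Interferon-stimulated genes changed in both directions, with 14 rises and 14 falls among 53 tested (median -0.27). The falls numbered 23 without E0 replicate 1 and 9 without E0 replicate 2, and the rises 9 without E2 replicate 2. Zbp1, a nucleic acid sensor, rose from 7.31 and 7.3 to 41.9 and 40.5 CPM (2.49 ± 0.09) and Gbp2 from 1.88 and 2.58 to 4.8 and 7.38 CPM. Ifitm1, a membrane restriction factor, fell from 181 and 213 to 58.3 and 68 CPM (-1.64 ± 0.18), and Slfn5 and Ifi207 fell 2.86-fold and 6.06-fold.

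Genes of protein synthesis split, with charging enzymes and stress response genes higher and ribosomal proteins lower. Of 20 aminoacyl-tRNA synthetases 14 rose and 0 fell (median 0.41, 7 rises without E0 replicate 1 or without E2 replicate 2), all but Aars by less than 2-fold. Aars, which charges the tRNA for alanine, rose from 18.8 and 22.9 to 56.8 and 62 CPM. Of 29 genes of the unfolded protein and integrated stress responses 16 rose and 1 fell. Psat1, of serine synthesis, rose from 3.73 and 3.46 to 17 and 16.5 CPM (2.22 ± 0.13), Mthfd2, of mitochondrial folate metabolism, 3.3-fold and the chaperone gene Hyou1 1.77-fold. Herpud1, of protein degradation at the endoplasmic reticulum, was 166 and 165 CPM in E0 and 183 and 187 CPM in E2 and was not called (adjusted p = 0.301). Of 43 genes of MYC and ribosome biogenesis 17 rose and 2 fell, with 6, 7 and 9 rises without E0 replicate 1, E2 replicate 1 and E2 replicate 2 and 1 fall without any 1 library. Ncl and Npm1 were not called (adjusted p = 0.311 and 0.286).

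Of 34 cytosolic ribosomal protein genes 26 fell, 2 rose and 6 were not called (median -0.47, 17 falls without E0 replicate 1). Rps9 went from 623 and 603 to 333 and 353 CPM (-0.84 ± 0.10) and Rpl30 from 224 and 222 to 125 and 128 CPM. Rps2 rose 1.34-fold.

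Genes of glycolysis and of hypoxia, listed together, rose in part. Of 27 tested 14 rose and 3 fell, the falls numbering 1 without any one of E0 replicate 2, E2 replicate 1 and E2 replicate 2. Pgk1 rose from 47.3 and 51.4 to 98.2 and 105 CPM (1.04 ± 0.08), Pfkp, a phosphofructokinase, from 108 and 117 to 215 and 240.2 CPM and Hif1a, the oxygen-regulated factor, from 562 and 613 to 965 and 1139 CPM. Aldoa was 2175 and 2299.5 CPM in E0 and 1926 and 2175 CPM in E2 and was not called (adjusted p = 0.34). Among transporters Slc2a6, of hexoses, rose 4.87-fold and Slc7a5, of large neutral amino acids, 3.44-fold. Nuclear-encoded oxidative phosphorylation genes were called in 12 of 40 cases, 9 higher and 3 lower and none by 2-fold (5 rises without E0 replicate 2 or E2 replicate 1, 3 without E0 replicate 1 and 2 without E2 replicate 2). The falls numbered 1 without E0 replicate 1 or E2 replicate 1, and the rises 15 with the 4 libraries alone and 14 without sex-linked genes and pseudogenes. Cholesterol and fatty acid synthesis genes were called in 4 of 35 cases, 3 higher and 1 lower, but with the 4 libraries alone 7 rose and 10 fell. In lipid handling, Lpl, lipoprotein lipase, rose from 5.36 and 8.06 to 62.9 and 66.7 CPM (3.27 ± 0.25), while Nr1h3, which encodes LXRα, fell from 2.58 and 4.22 to 0.833 and 0.797 CPM (-2.06 ± 0.30) and the phospholipid transfer protein gene Pltp fell 3.67-fold.

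Nuclear receptor genes fell more often than they rose, with 10 falls, 3 rises and 8 not called among 21 (7 or 8 falls without any 1 library). Vdr, the vitamin D receptor, rose 105-fold from 0.0966 and 0.0955 to 9.49 and 11 CPM, and the other rises were the early response receptors Nr4a1 and Nr4a3 (4.7-fold). The thyroid hormone receptor Thra and the clock repressor Nr1d1 fell 2.71-fold and 3.84-fold. Among 16 clock genes 4 rose and 5 fell (2 rises without E0 replicate 1), Per2 rising 2.14-fold and Per3 falling 2.67-fold. Cell cycle genes were called in 13 of 32 cases, 10 higher and 3 lower (5 rises without E0 replicate 1, 6 without E2 replicate 1 or 2, and 1 fall without any 1 library). Cdk6 rose from 52.3 and 47.6 to 335 and 332 CPM (2.74 ± 0.16) beside the cell cycle inhibitor Cdkn1a (3.44-fold), Cdkn1b fell 1.91-fold, and the proliferation marker Mki67 was 83.9 and 60.6 CPM in E0 and 82.9 and 64.4 CPM in E2, with overlapping groups (adjusted p = 0.909).

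Among factors of tissue repair and remodelling, Inhba, which encodes the activin A subunit, rose from 0.129 and 0.119 to 5.82 and 5.41 CPM (5.49 ± 0.36, adjusted p = 2.69e-05), Hbegf, an EGF receptor ligand, 4.08-fold and Lgals1, galectin-1, 3.67-fold. Of 17 tested growth and repair factors 8 rose and 5 fell (4 rises and 3 falls without E0 replicate 1 or E2 replicate 2, 5 rises and 1 fall without E2 replicate 1, and 2 falls without E0 replicate 2). Vegfa was 10.1 and 15.9 CPM in E0 and 24.3 and 30.3 CPM in E2, a 2.1-fold rise that was not called without E0 replicate 1 (0.20), E2 replicate 1 (0.0797) or E2 replicate 2 (0.179). Of 17 metalloproteinases and inhibitors 6 rose and 5 fell, 4 and 4 without any 1 library. Mmp12, the macrophage elastase, rose from 1.88 and 2.46 to 14.1 and 11.8 CPM and Timp1 8.04-fold, while the gelatinase gene Mmp9 fell from 355 and 422 to 184 and 216 CPM. Among oxidase and arginine genes 11 of 21 rose and 3 fell, and lysosomal genes divided into 13 rises and 10 falls among 34 (8 rises without E0 replicate 1 or E2 replicate 2, and 5, 6 and 4 falls without E0 replicate 2, E2 replicate 1 and E2 replicate 2).

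Some of the largest rises lay outside these groups. Upp1, uridine phosphorylase, rose from 30.7 and 32.6 to 719 and 768 CPM (4.55 ± 0.08, adjusted p = 7.21e-08). Grm6, a metabotropic glutamate receptor, rose from 15 and 10.6 to 279.6 and 258 CPM (21.1-fold), Lipg, endothelial lipase, from 15.8 and 12.9 to 485 and 394 CPM (4.94 ± 0.19) and Pilra, an inhibitory paired receptor, from 16.2 and 26.1 to 501 and 495 CPM (4.55 ± 0.29). Gzmb, granzyme B, reached 10.4 and 9.89 CPM from 0.322 and 0.68. Serpina3g, a protease inhibitor of a family of close paralogs, rose 98.6-fold. On the falling side Unc5c, a netrin receptor, went from 20.4 and 14.4 to 1.11 and 1.39 CPM (-3.79 ± 0.23), Abcc2, an organic anion exporter, from 416 and 334 to 48.3 and 50.9 CPM (-2.92 ± 0.23), Slc40a1, which encodes the iron exporter ferroportin, from 122 and 128 to 15 and 19.6 CPM (-2.85 ± 0.21) and Emb, embigin, from 109 and 125 to 12.3 and 17.7 CPM (-2.96 ± 0.18).

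Whether a change was particular to this mix was asked against the separate experiment, in which IFN-γ and TNF-α were added to cells without cytokine. In that test of the difference of changes 25.2% of the genes were called. The experiments differ in baseline as well as in the cytokines added, and this cannot be told apart. Il13 changed by -0.42 ± 0.31 there, a difference of 5.75 ± 0.47 (adjusted p = 8.46e-05), and Ccl17 by 0.34 ± 0.09 (difference 5.25 ± 0.13, adjusted p = 5.33e-07). Pim2, Bcl2l1 and Cish also differed (adjusted p = 1.12e-06, 1.06e-06 and 1.06e-06), Bcl2l1 changing by -1.04 ± 0.08 and Cish by -0.89 ± 0.07 from CN to E1. No difference was called for Ccl24 (adjusted p = 0.784), which stood at 0.0211 and 0 CPM in CN and 1.49 and 1.19 CPM in E1, for Ccl22 (5.22 ± 0.49, adjusted p = 0.776), Il2rg (2.81 ± 0.10, adjusted p = 0.464) and Ikbke (4.10 ± 0.18, adjusted p = 0.975). The differences with their SE were 0.30 ± 0.62 for Ccl22, -0.15 ± 0.13 for Il2rg and 0.02 ± 0.24 for Ikbke. The rises of Cd274 and Icam1 were smaller here than with IFN-γ and TNF-α, which changed them by 4.14 ± 0.15 and 3.37 ± 0.12 (adjusted p of the difference = 0.000227 and 0.000149).

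Markers of other blood cells moved with several of these results. The 13 tested eosinophil markers summed to 9111.1 and 8977.6 CPM in E0 and 7448.9 and 7387.8 CPM in E2, and 3 rose and 8 fell (4 falls without E0 replicate 1 or without E2 replicate 2). The 19 tested neutrophil markers, of which 11 were not called, summed to 3834.3 and 4624.4 CPM in E0 and 1687.8 and 2137.2 CPM in E2. Of these 7 fell and 1 rose, with Ngp from 83.4 and 75.4 to 33.6 and 46.1 CPM and Ly6g from 4.83 and 5.97 to 1.27 and 1.47 CPM, while S100a9 was 624 and 1018 CPM in E0 and 361 and 542 CPM in E2 (adjusted p = 0.0662, 0.0394 without E0 replicate 1) and S100a8 378 and 615 CPM in E0 and 254 and 394 CPM in E2 (adjusted p = 0.192). The 24 tested markers of monocytes, macrophages and dendritic cells summed to 1114.7 and 1547.0 CPM in E0 and 1126.0 and 1111.4 CPM in E2, and 14 fell and 5 rose (3 rises without E2 replicate 1). Apoe was 71.9 and 133 CPM in E0 and 2.13 and 2.65 CPM in E2 and Stab1 11.7 and 21.7 CPM in E0 and 1.11 and 1.08 CPM in E2, each higher in replicate 2 than in replicate 1 of E0, while Csf1r rose 1.9-fold. Their part in the falls of Retnlg, Mmp8, Csf3r, Mrc1, Igf1 and Cx3cr1, which are markers themselves or fell beside them, was not tested.

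The remaining marker groups were small. B cell markers summed to 293.53 and 290.37 CPM in E0 and 205.06 and 177.63 CPM in E2, with Ighm from 239 and 229 to 124 and 97.4 CPM and Cd22, a lectin of B cells, up 6.45-fold. Of these 14 markers 3 rose and 2 fell (1 each without E0 replicate 1, E0 replicate 2 or E2 replicate 1, and 2 and 1 without E2 replicate 2). T cell and ILC2 markers summed to 23.062 and 21.267 CPM in E0 and 26.306 and 25.345 CPM in E2, with Cd3d at 3.2 and 2.18 CPM in E0 and 2.65 and 1.99 CPM in E2 (adjusted p = 0.588) and Thy1, the CD90 antigen used for depletion, at 0.322 and 0.346 CPM in E0 and 1.84 and 1.86 CPM in E2. Of 12 tested 2 rose and 2 fell (1 rise without any 1 library, and 1 fall without E0 replicate 1, E2 replicate 1 or E2 replicate 2), Tcf7 falling 2.32-fold. Cd3e, Cd4 and Gata3 were not analysed here. Basophil and mast cell markers summed to 95.79 and 90.009 CPM in E0 and 167.48 and 130.07 CPM in E2, and 5 of 10 rose (3 without E2 replicate 1) and 0 fell. The chymase Cma1 went from 0.644 and 0.692 to 6.36 and 6.88 CPM, Cd200r3 from 3.72 and 3.08 to 20.8 and 12.8 CPM and the basophil protease Mcpt8 from 0.724 and 0.704 to 2.43 and 2.66 CPM. Ms4a2, the IgE receptor beta chain, was 2.93 and 1.96 CPM in E0 and 2.25 and 2.22 CPM in E2 and was not called (adjusted p = 0.759). Basophils and ILC2 also make IL-13 and IL-4, and a part of these cells in the Il13 values was not tested. NK cell markers summed to 41.57 and 45.673 CPM in E0 and 61.291 and 65.194 CPM in E2, with Gzmb among the 4 of 11 that rose (2 without E2 replicate 2). The lectin-like receptor genes Klra8 and Klrd1 fell 3.48-fold and 2.76-fold, the fall of Klra8 being lost without E2 replicate 1 (adjusted p = 0.0754), and 4 markers fell with the 4 libraries alone. Platelet and erythroid markers summed to 242.58 and 211.58 CPM in E0 and 273.96 and 253.65 CPM in E2, and 1 of 7 rose, 0 without any 1 library.

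**Figure D5:**
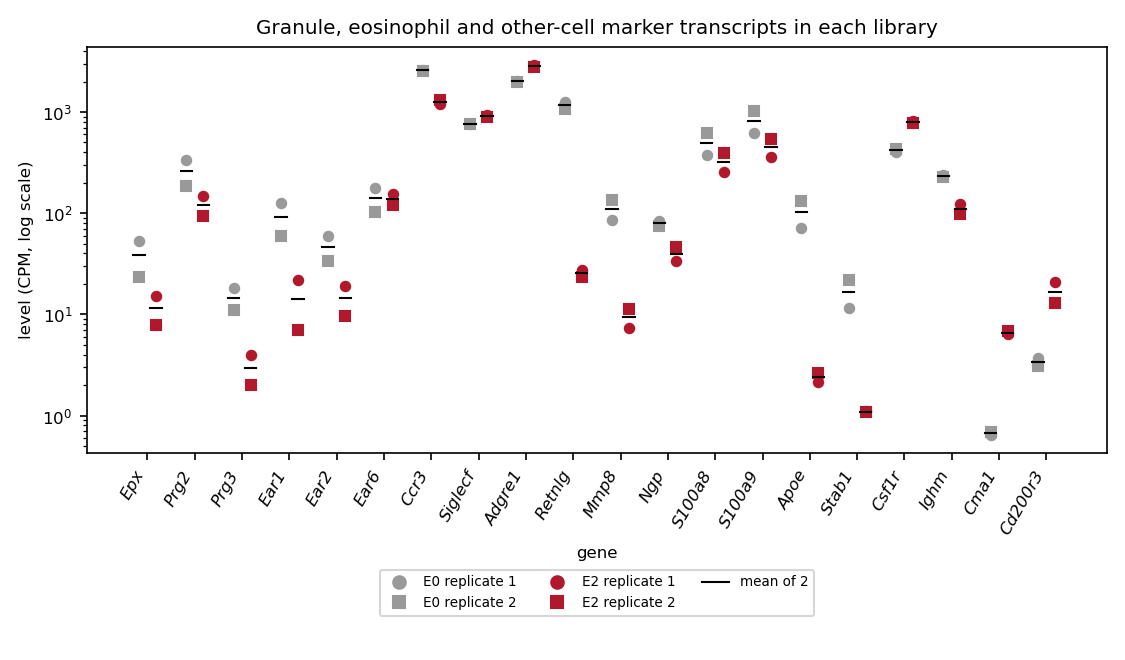
Levels in CPM on a log axis of granule protein, eosinophil and other-cell marker genes in each E0 library (grey) and E2 library (red), with circles for replicate 1, squares for replicate 2 and a black line at the mean of the 2. Epx, Prg2 and Ear1 are higher in replicate 1 of both groups, Apoe and Stab1 are higher in replicate 2 of E0, and Ear6 and S100a8 overlap between the groups.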

How the data were processed

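RNA was sequenced from 8 libraries in 4 groups, and the deposited table holds whole-number counts per gene. Reads were aligned with STAR to mm10 and counted with featureCounts, per the submitters' processing notes. The sources used here do not give the strand and multi-mapping settings. The row with no name held 100.0% of the counts of all named rows in each library and was left out of library sizes and tests. Of the 15917 gene identifiers 15730 matched a symbol, and the 187 others held 1.2% of the counts. Groups and replicate numbers came from the sample titles.

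Genes were filtered with filterByExpr, which removed 4, scaled by TMM and tested with edgeR 4.0.16 (R 4.3.3), with 1 mean for each of the 4 groups over all 8 libraries and Benjamini-Hochberg adjustment over all tested genes. The SE of a change is its size divided by the square root of the F statistic of its contrast. CPM values were computed here from the counts and the TMM factors. Levels and changes of genes with at most 3 counts in a group are given as bounds or as ratios with exact 95% intervals, which cover counting error only. The difference between the changes of the 2 experiments was a contrast in the same fit. Alternatives were DESeq2 1.42.0, limma-voom 3.58.1, other scalings, no filter, the 4 libraries alone, a block for the replicate number, leaving out sex-linked genes and pseudogenes, and leaving out each library.

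The gene lists, 51 in number, and the members named were chosen with earlier results of these data known. The genes named are the 20 strongest rises and falls at 10 CPM or more in the higher group whose libraries do not overlap, up to 6 called members each way and up to 3 uncalled members of each list, and a set of chosen genes. Bax, Bak1, Stat5a, Flt1 and the genes of the closing section were named after their values were seen. Some genes that the rule names are not reported here. Ddx3y and Xist served as checks of the libraries. Promoters came from RefSeq tables on GRCm38.p6, in which 10333 tested genes had one.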

Additional observations from a re-analysis of the deposited data

How the results depend on the processing

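The number of called genes, 5655, changed with the number of libraries and with the replicate block. Leaving out 1 library gave 3334 to 3984 called genes, 1569 to 1901 higher and 1765 to 2083 lower, and 2715 to 3030 genes whose change differed between the experiments, against 4018 with all libraries. One group then held a single library, which was assumed to vary like the others. With other scalings, DESeq2, limma-voom, no filter, the 4 libraries alone, or without sex-linked genes and pseudogenes, the counts of higher and lower genes stayed within 1.5 times the reported ones. The 4 libraries alone give no difference between the experiments. Of 564 named genes, some lost their call when 1 library was left out. Among named genes called as reported or in the setting compared, none changed direction in any setting run. Uncalled genes were not checked for direction. The libraries hold 60809057 to 82686185 counts, and depth limits the genes of few counts.

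The replicate number, entered as a block within each experiment, gave 8514 called genes, 4145 of them higher, and 6821 genes whose change differed between the experiments. All 5655 called genes kept their direction with the block, and 74 named genes passed the threshold that had not passed before. Same-numbered libraries of E0 and E2 deviated together from their group means (correlation 0.7369 over 13423 genes, 0.6247 without sex-linked genes). Same-numbered libraries also share the sex of their cells. With 2 pairs, and no label saying that a number marks a shared animal, batch or day, pairing was not established, and the unblocked fit is reported.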

Other observations

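Several large changes fall under none of the gene groups described above and were chosen after their values were seen. C3, the central complement component, was 37.7 and 57.2 CPM in E0 and 573 and 514 CPM in E2, a rise of 3.52 ± 0.26 on the log2 scale (edgeR adjusted p = 4.21e-05). Car4, a membrane carbonic anhydrase, rose from 70.3 and 118 to 915 and 1085 CPM (3.41 ± 0.26), and Slc6a4, the serotonin transporter gene, from 46.4 and 41.4 to 365 and 302 CPM (2.93 ± 0.14). Ccn3, a matricellular protein gene, rose from 21.7 and 22.5 to 226 and 216 CPM (3.32 ± 0.19) and Asb2, a substrate adaptor of a ubiquitin ligase, from 98.2 and 105 to 720.1 and 718 CPM (2.83 ± 0.19). In each of these genes both E2 libraries lay above both E0 libraries.

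Sgce (chromosome 6, 4674350 to 4747207) and Peg10 (chromosome 6, 4747306 to 4760517), which neighbour each other on the same chromosome and are known as paternally expressed imprinted genes, both rose. Sgce was 0.451 and 0.80 CPM in E0 and 9.44 and 10.1 CPM in E2 (3.95 ± 0.29) and Peg10 3.35 and 2.71 CPM in E0 and 233 and 248 CPM in E2 (6.32 ± 0.15). The activating receptor genes Pilrb1 and Pilrb2 rose by 2.87 ± 0.25 and 2.90 ± 0.19, beside their inhibitory relative Pilra (4.55 ± 0.29), but the first 2 are close paralogs and reads may be shared between them.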
